A study of Homo sapiens with 18 samples.

Results

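The ephrin receptors described here are *EPHA4*, *EPHA7*, *EPHA8*, *EPHB1*, *EPHB2*, *EPHB3*, *EPHB4* and *EPHB6*, 8 of the 14 EPH receptor genes in the tables and of 26941 genes in all. They were chosen by name as receptors of this family, with *EPHB3* picked out because it fell in REH cells and *EPHA7* because it fell in RCH-ACV cells. The changes under *SOX11* siRNA in REH and RCH-ACV were therefore used in the choice. They are given as a description, without p-values, and where a receptor is said to be called there (adjusted p under 0.05), this describes the values used in the choice and supports nothing. The siRNA contrast in 697 cells was not used and was tested. The levels of the lines under control siRNA were tested too, except where they rest on the control values of *EPHB3* in REH or *EPHA7* in RCH-ACV, which had a share in the choice. Differences of *EPHA4* and *EPHB2* between lines are a description, since both passed the filter on low counts through lines in which they are high. The 6 receptors outside the choice are *EPHA1*, *EPHA2*, *EPHA3*, *EPHA5*, *EPHA6* and *EPHA10*.

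RNA was sequenced from 18 samples of 3 established lines of B-cell precursor acute lymphoblastic leukemia. In each line, 3 samples were nucleofected with 300 nM *SOX11* siRNA and 3 with 300 nM non-specific control siRNA, and RNA was taken 48 h later. An siRNA pairs with its target transcript and has it cut, so it lowers the transcript and does not remove the gene. All groups passed through nucleofection, and no sample without it was analysed here. The 3 samples of a group came from 1 line, and p-values measure the spread between its independent transfections.

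Eph receptors form the largest family of receptor tyrosine kinases and bind ephrins on the surface of neighbouring cells. EphA receptors bind mainly the ephrin-A ligands, which are held in the membrane by a lipid anchor, and EphB receptors bind mainly the ephrin-B ligands, which cross the membrane and can signal back into the cell that carries them. The pathway is best known for repulsion, adhesion and sorting of cells in the nervous system, the vessels and the gut, and several members are expressed in blood and lymphoid cells. *EPHB6* and *EPHA10* have lost kinase activity and act alongside other receptors.

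The total count per sample lay between 7039594 and 16592492, and levels are given as counts per 1000000 (CPM) with TMM-scaled library sizes, as mean ± SD with n = 3 unless single samples are listed. A sample needed between 0.181 and 0.426 CPM to hold 3 counts, the smallest number taken here to show a gene, and this floor covers counting error only. *SOX11* itself was lower after its siRNA in every line (53.7 ± 6.83 against 96.0 ± 2.85 CPM in REH, 31.9 ± 0.841 against 59.7 ± 0.492 in 697, 82.5 ± 3.82 against 131 ± 5.79 in RCH-ACV), with log2 fold changes of −0.83, −0.91 and −0.67 and no overlap between the groups. Of 10 markers of B-cell precursors, 9 were at 1 CPM or more in REH and 10 in the other lines, while none of the 5 T-cell and 5 epithelial markers in the tables reached 1 CPM in any group.

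The stretches before the starts of 3 receptor genes are shown because *EPHB3* and *EPHA7* led the choice of this family and *EPHB1* was the only member with a match to the motif searched. They were read from GRCh37 5′ to 3′ on the gene's strand, and they end where the annotated span of the gene begins. For *EPHA7* this left 122 bases, because the window before its representative transcript reaches into the gene's span. *EPHB3* is at chr3:184279323-184279572 on the plus strand, *EPHA7* at chr6:94129406-94129527 on the minus strand and *EPHB1* at chr3:134513852-134514101 on the plus strand. Capitals mark a match to a SOX-type heptamer.
EPHB3: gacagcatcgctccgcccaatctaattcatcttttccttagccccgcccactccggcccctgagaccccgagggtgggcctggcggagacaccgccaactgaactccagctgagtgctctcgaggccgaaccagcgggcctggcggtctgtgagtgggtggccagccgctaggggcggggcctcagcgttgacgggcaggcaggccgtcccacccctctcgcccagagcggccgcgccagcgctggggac
EPHA7: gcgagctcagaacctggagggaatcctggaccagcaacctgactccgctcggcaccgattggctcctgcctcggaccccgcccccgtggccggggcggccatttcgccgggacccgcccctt
EPHB1: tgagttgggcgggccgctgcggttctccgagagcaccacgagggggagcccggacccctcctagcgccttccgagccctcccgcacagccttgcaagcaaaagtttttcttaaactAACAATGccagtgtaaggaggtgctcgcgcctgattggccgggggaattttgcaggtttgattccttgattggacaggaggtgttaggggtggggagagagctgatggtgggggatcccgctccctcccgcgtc

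The heptamers searched begin with a pair of bases that are each A or T, go on with CAA and then A or T, and end in G. These 8 heptamers, among them AACAATG, were searched on both strands in the 250 bases before the start of the representative transcript of each gene. Of 18921 such regions, 12.9% held at least 1 match. Among the 8 receptors, *EPHB1* held 1 match, which begins 134 bases before its start, and the other 7 held none. The regions were rich in G and C, from 60.8% in *EPHB1* to 84.8% in *EPHB2*, with 70.0% in *EPHB3* and 69.6% in *EPHA7*. A match or its absence describes these letters in this window and says nothing of whether *SOX11* binds there.

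The lines shared 3 receptors and differed in the others. *EPHB4*, *EPHB6* and *EPHB3* were at 1 CPM or more in all 3 lines under control siRNA, *EPHA7* and *EPHB2* in REH and RCH-ACV, and *EPHA4* in RCH-ACV alone. Counted this way, 5 of the 8 were expressed in REH, 3 in 697 and 6 in RCH-ACV, while *EPHB1* and *EPHA8* stayed under 1 CPM in every sample. Set per kilobase of transcript, so that genes can be compared, the order in REH was *EPHB4* (24.5 CPM per kb), *EPHA7* (6.15), *EPHB6* (1.90), *EPHB3* (0.925) and *EPHB2* (0.295). In 697 the order of the members was *EPHB4* (24.4 CPM per kb), *EPHB6* (1.17) and *EPHB3* (0.693). In RCH-ACV it was *EPHB4* (18.7 CPM per kb), *EPHB3* (3.40), *EPHB6* (2.27), *EPHA4* (1.20), *EPHA7* (0.384) and *EPHB2* (0.135). The 3 samples of each receptor in these orders lay clear of the next receptor's, except that *EPHB2* in RCH-ACV overlapped with *EPHA2*, which is no member, at 0.0805 CPM per kb. Below these, the remaining receptors of each line overlapped with their neighbours in the order, apart from *EPHA2* in REH and in RCH-ACV.

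**Figure D1:**
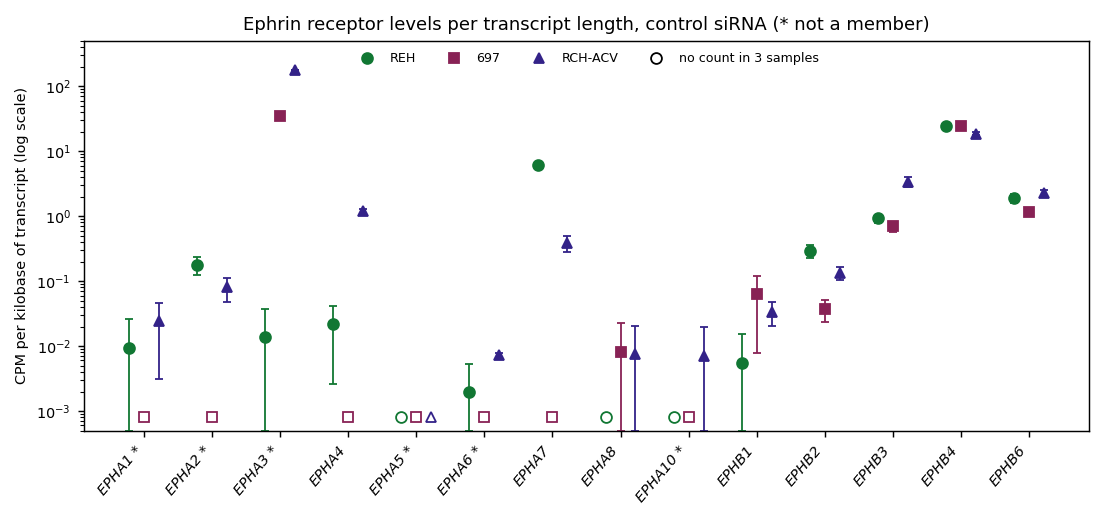
Level of each of the 14 EPH receptor genes under control siRNA, in CPM per kilobase of transcript on a log axis. Filled symbols are means of 3 samples in REH, 697 and RCH-ACV, bars are the SD (cut at the lower edge where the SD exceeds the mean), and open symbols near the lower edge are genes with no count in 3 samples. *EPHB4* was high in all 3 lines, between 18.7 and 24.5 CPM per kb, while *EPHA7*, *EPHA4* and *EPHA3* differed between lines by far more.

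*EPHA3*, outside the choice, was the receptor with the highest level per length in 697 and in RCH-ACV. It reached 34.4 CPM per kb in 697 and 178.8 in RCH-ACV, above *EPHB4* in both. In REH it had 3 counts, all of them in control replicate 2. The level in 697 was 2047 times that in REH (95% counting interval 700.1 to 9931). Without that sample, an alternative chosen after seeing the data, REH had no count, and 697 was at least 587.7-fold higher (against a floor of 3 counts per library, 0.335 CPM). RCH-ACV exceeded 697 by 2.38 ± 0.05 (SE) on the log2 scale (edgeR's quasi-likelihood test, adjusted p = 4.45e-17).

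*EPHB4*, the receptor for ephrin-B2 that is best known from veins, was the most abundant member in each line. Its 3 control samples held 105.3, 107.4 and 107.5 CPM in REH, 98.6, 106.9 and 112.8 CPM in 697, and 85.1, 76.1 and 82.4 CPM in RCH-ACV. REH and 697 overlapped, and RCH-ACV lay below both. *EPHB4* was higher in REH than in RCH-ACV by 0.39 ± 0.06 on the log2 scale (SE; edgeR's quasi-likelihood test, adjusted p = 1.29e-05) and higher in 697 than in RCH-ACV by 0.38 ± 0.06 (adjusted p = 2.86e-05). Between REH and 697 the difference was 0.01 ± 0.06 (adjusted p = 0.930). The gene (NM_004444, chr7:100400187-100425145, minus strand, hg19) shares exon bases with *SLC12A9* on the opposite strand, and whether reads were counted by strand is not given in the sources used here. *EPHA4*, *EPHA7*, *EPHB1* and *EPHB2* also share exon bases with other, minor gene models.

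*EPHA7*, an EphA receptor known from axon guidance, differed widely between the lines. REH held 41.4, 41.7 and 39.1 CPM in its control samples, RCH-ACV held 3.31, 2.33 and 1.98 CPM, and 697 had no count in any of its 6 samples. The lines did not overlap. REH was 15.8-fold higher than RCH-ACV (log2 difference 3.98 ± 0.14, SE). Against the floor of 3 counts per library, at 0.405 CPM, *EPHA7* was at least 100.5-fold higher in REH and at least 6.27-fold higher in RCH-ACV than in 697. The gene (counted transcript NM_004440) spans chr6:93949738-94129405 on the minus strand in hg19.

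*EPHA4*, an EphA receptor that also binds ephrin-B ligands, was at 7.65, 7.13 and 8.03 CPM in the control samples of RCH-ACV. In REH it had 2, 3 and 0 counts, and in 697 none in 6 samples. As a description, RCH-ACV exceeded REH by 5.46 ± 0.34 (SE) on the log2 scale and was at least 18.8-fold higher than 697. No p-value is given, because *EPHA4* passed the filter on low counts through RCH-ACV, where it is high. REH and 697 were both at or under the floor, and no fold is given between them. The gene (counted transcript NM_004438) spans chr2:222282747-222438922, minus strand, hg19.

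*EPHB3*, a receptor best known for positioning cells in the gut epithelium, was higher in RCH-ACV than in the other lines. The control samples held 4.33, 3.29 and 4.12 CPM in REH, 2.60, 3.50 and 2.71 CPM in 697, and 11.7, 14.7 and 16.9 CPM in RCH-ACV. RCH-ACV did not overlap with the others, whereas REH and 697 did overlap. RCH-ACV exceeded 697 by 2.30 ± 0.20 on the log2 scale (SE; edgeR's quasi-likelihood test, adjusted p = 7.73e-09). As a description, it exceeded REH by 1.90 ± 0.17, and REH lay 0.40 ± 0.24 above 697. The gene (counted transcript NM_004443) spans chr3:184279573-184300196, plus strand, hg19.

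*EPHB6*, the member without kinase activity, was lowest in 697. Its control samples held 8.10, 8.53 and 6.19 CPM in REH, 4.82, 4.81 and 4.34 CPM in 697, and 9.25, 7.91 and 10.0 CPM in RCH-ACV. The 697 samples lay below all others. *EPHB6* was higher in REH than in 697 by 0.73 ± 0.17 on the log2 scale (SE; edgeR's quasi-likelihood test, adjusted p = 8.44e-04) and higher in RCH-ACV than in 697 by 0.97 ± 0.17 (adjusted p = 8.13e-05). REH and RCH-ACV differed by −0.24 ± 0.15 (adjusted p = 0.151). The gene (counted transcript NM_001280794) spans chr7:142552823-142568847, plus strand, hg19.

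*EPHB2*, a close relative of *EPHB3* with roles in synapses and the gut, was highest in REH. It held 2.92, 4.15 and 2.71 CPM in the REH controls, 1.14, 1.82 and 1.51 CPM in those of RCH-ACV, and 0.247, 0.437 and 0.543 CPM in those of 697. None of the 3 lines overlapped with another. As a description, REH exceeded 697 by 3.01 ± 0.37 (SE) on the log2 scale and RCH-ACV by 1.17 ± 0.26, and RCH-ACV exceeded 697 by 1.84 ± 0.46. No p-value is given, because *EPHB2* passed the filter on low counts through lines in which it is high. The gene (counted transcript NM_004442) spans chr1:23037332-23247993, plus strand, hg19.

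*EPHB1* and *EPHA8* were barely detected. *EPHB1* had 1 count over the 3 control samples in REH, 7 in 697 and 4 in RCH-ACV. *EPHA8* had none in REH and 1 in each of the other lines. At these depths a level under the floor cannot be told from absence.

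Of the 6 members that entered the fit of the controls, 4 were called between REH and 697, where 76.2% of all genes tested were, 5 between REH and RCH-ACV, against 73.7%, and 6 between 697 and RCH-ACV, against 64.2%. Nothing is read from these counts. Most genes differed between these lines, and *EPHA4*, *EPHA7* and *EPHB2* passed the filter on low counts through the lines in which they are high. *EPHA4* counts among the 4 with 5 counts in REH against 0, the samples of the lines overlapped, and its call was lost with DESeq2, with the replicate block and without single samples (REH control replicates 1 and 2 and each of the 697 controls).

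The effect of *SOX11* siRNA was then examined in each line. The receptors called lower were *EPHB3*, *EPHA7* and *EPHB4* in REH and *EPHA7* and *EPHA4* in RCH-ACV, which describes the contrasts used in the choice, and none passed the test in 697. In bulk samples, fewer cells of a type and less RNA per cell cannot be told apart.

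In REH, *EPHB3* showed the largest fall among the members tested. It held 4.33, 3.29 and 4.12 CPM with control siRNA and 1.62, 1.97 and 1.90 CPM with *SOX11* siRNA. All *SOX11* siRNA samples lay below all controls, and 47.5% of the control level was left (log2 fold change −1.07 ± 0.23, SE).

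*EPHA7* in REH held 41.4, 41.7 and 39.1 CPM with control siRNA and 32.5, 29.9 and 29.4 CPM with *SOX11* siRNA. The groups were again apart, by a log2 fold change of −0.40 ± 0.07 (SE), with 303 to 533 counts per control sample behind the values. *EPHB4* went from 105.3, 107.4 and 107.5 CPM to 100.2, 90.0 and 87.5 CPM. Its fold change was −0.19 ± 0.05 on the log2 scale, the smallest of the receptors called, and the call was lost without any single REH sample other than *SOX11* siRNA replicate 1, and also with DESeq2 or with 1 fit over the 18 samples.

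The other members tested in REH overlapped between the groups. *EPHB2* held 2.92, 4.15 and 2.71 CPM with control siRNA and 2.66, 2.62 and 3.32 CPM with *SOX11* siRNA, a log2 fold change of −0.20 ± 0.22 (SE) that turned to 0.04 without control replicate 2. *EPHB6* held 8.10, 8.53 and 6.19 CPM against 7.13, 10.7 and 8.82 CPM (0.18 ± 0.15). *EPHA4*, *EPHB1* and *EPHA8* had too few counts to be fitted, with 0 to 3 counts in any REH sample.

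In REH, then, 3 of the 5 members tested were called, all lower, where 4.65% of all genes tested were called and 2.01% were called lower. The 3 were also those whose groups did not overlap, which held for 21.5% of all genes tested. The members' median log2 fold change was −0.20, against −0.0022 over all genes tested. Since the choice of receptors used this contrast, nothing is read from these counts. *EPHB4* was the called receptor nearest the threshold, and *EPHB6*, at nearly the same distance from 0 in the other direction, was the nearest outside it.

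**Figure D2:**
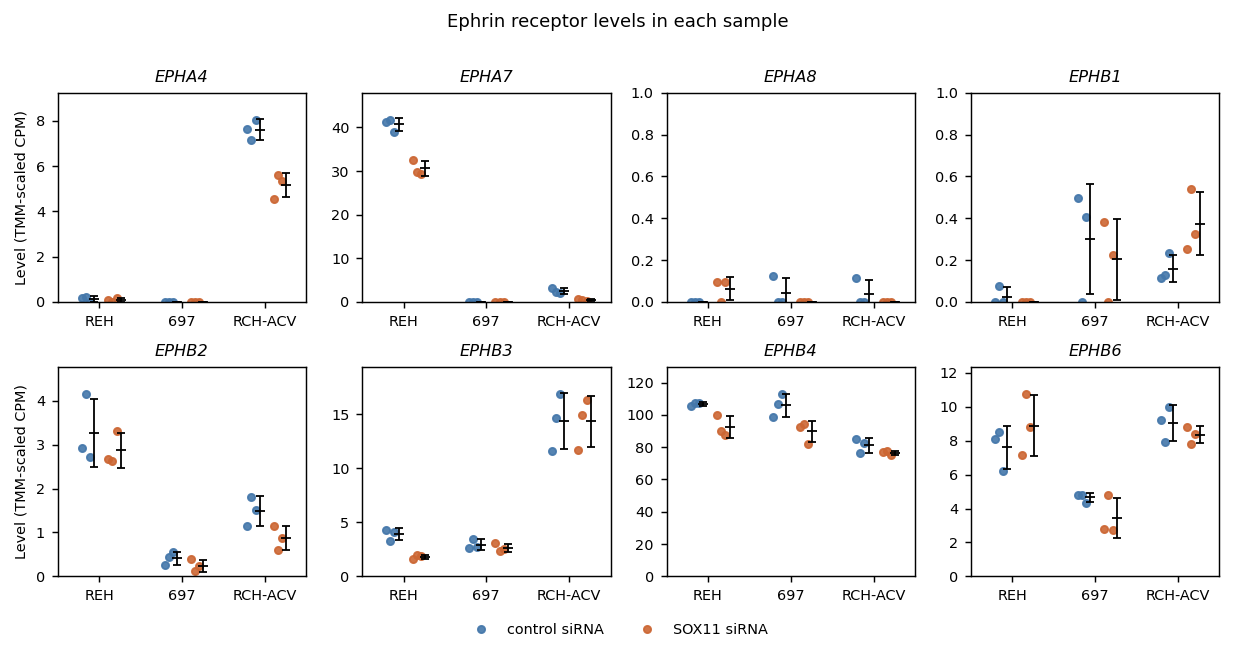
CPM of each of the 8 ephrin receptors in every sample, by line, on linear axes that start at 0 and differ between panels. Points are samples with control siRNA (blue) and *SOX11* siRNA (orange), and bars beside them are the mean and SD of 3 samples. The groups of *EPHB3* lay apart in REH and overlapped in the other lines, and those of *EPHB4* lay apart in REH and 697. Those of *EPHA7* lay apart in REH and RCH-ACV, and those of *EPHA4*, *EPHB2* and, upward, *EPHB1* in RCH-ACV. Groups lay apart for 21.5% of all genes tested in REH, 12.6% in 697 and 25.8% in RCH-ACV. *EPHA8* and *EPHB1* stayed under 1 CPM.

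In RCH-ACV, *EPHA7* showed the largest fall of any member in any line, at low counts. It held 3.31, 2.33 and 1.98 CPM with control siRNA, from 29, 18 and 17 counts, and 0.758, 0.541 and 0.327 CPM with *SOX11* siRNA, from 6, 9 and 3 counts. All *SOX11* siRNA samples lay below all controls, with a log2 fold change of −2.23 ± 0.35 (SE).

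*EPHA4*, at 1 CPM or more in RCH-ACV alone, held 7.65, 7.13 and 8.03 CPM with control siRNA and 4.54, 5.59 and 5.34 CPM with *SOX11* siRNA. The groups did not overlap, and the log2 fold change was −0.54 ± 0.15 (SE). The call was lost with DESeq2, with the replicate block, with 1 fit over the 18 samples, and without any single sample other than *SOX11* siRNA replicate 3.

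*EPHB3*, the receptor that fell in REH, was highest in RCH-ACV and did not separate the groups there. It held 11.7, 14.7 and 16.9 CPM with control siRNA and 11.7, 15.0 and 16.4 CPM with *SOX11* siRNA, a log2 fold change of 0.01 ± 0.14 (SE). *EPHB4* held 85.1, 76.1 and 82.4 CPM against 76.9, 77.5 and 75.1 CPM (−0.09 ± 0.06), and *EPHB6* held 9.25, 7.91 and 10.0 CPM against 8.84, 7.82 and 8.40 CPM (−0.14 ± 0.14). Both overlapped between the groups. *EPHB2* was left out of the fit by the filter on low counts, with 1.142, 1.816 and 1.513 CPM against 1.136, 0.602 and 0.872 CPM, so that its groups were apart by a narrow margin. *EPHB1* had 4 counts with control siRNA and 14 with *SOX11* siRNA, and its groups did not overlap either, at no more than 0.541 CPM.

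In RCH-ACV, 2 of the 5 members tested were called, both lower, where 7.51% of all genes tested were called and 3.92% were called lower. The groups of these 2 did not overlap, which held for 25.8% of all genes tested, nor did those of *EPHB2* and *EPHB1*, which were not tested. The median log2 fold change of the members tested was −0.14, against 0.0049 over all genes tested, and as in REH nothing is read from these counts. *EPHA4* was the called receptor nearest the threshold and *EPHB4* the nearest outside it.

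In 697, where the contrast was not used in the choice, no receptor passed the test. *EPHB4* held 98.6, 106.9 and 112.8 CPM with control siRNA and 92.7, 94.7 and 82.2 CPM with *SOX11* siRNA. All *SOX11* siRNA samples lay below all controls, but the log2 fold change of −0.25 ± 0.08 (SE) missed the threshold after adjustment (edgeR's quasi-likelihood test, adjusted p = 0.360). *EPHB3* held 2.60, 3.50 and 2.71 CPM against 3.07, 2.33 and 2.49 CPM, a log2 fold change of −0.16 ± 0.24 (adjusted p = 0.959). *EPHB6* held 4.82, 4.81 and 4.34 CPM against 2.82, 4.78 and 2.71 CPM (−0.44 ± 0.25, adjusted p = 0.739). *EPHB3* and *EPHB6* overlapped between the groups.

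Of the 3 members tested in 697, 0 were called by edgeR's quasi-likelihood test and 0 by DESeq2, and 1, *EPHB4*, had an unadjusted p under 0.05. In this line 0.559% of all genes tested were called, and 12.6% had groups that did not overlap. The median log2 fold change of the 3 members was −0.25, against −0.0038 over all genes tested. *EPHB2* (9 counts with control siRNA and 6 with *SOX11* siRNA), *EPHB1* (7 and 5) and *EPHA8* (1 and 0) had too few counts to be fitted, and 2-sided exact permutation tests gave p = 0.2, 0.6 and 1, where 0.1 is the smallest p that 3 samples against 3 allow. None of these tests could pass 0.05, and the single count of *EPHA8* allowed no other p, so they cannot tell whether these receptors changed. *EPHA4* and *EPHA7* had no count in 697.

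**Figure D3:**
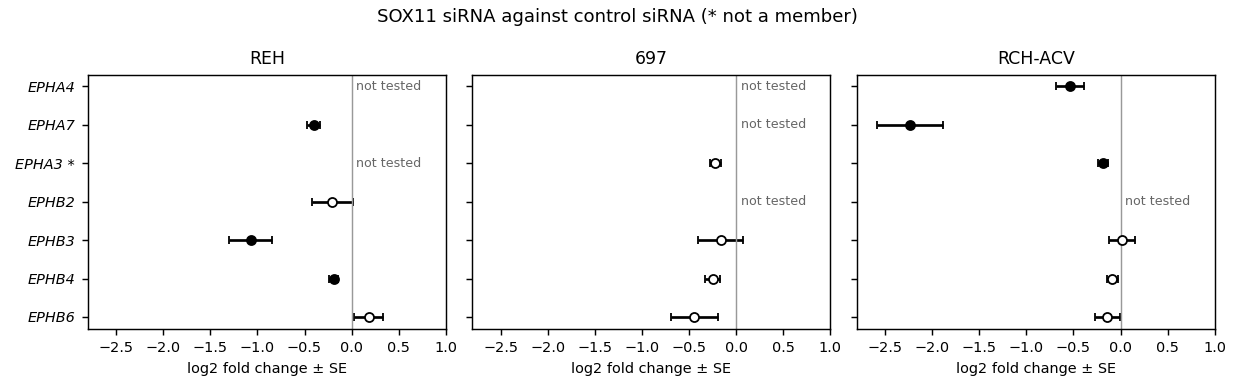
Log2 fold change of *SOX11* siRNA against control siRNA for 6 members and for *EPHA3* in each line, with its SE as a bar. Filled points had an adjusted p under 0.05 in edgeR's quasi-likelihood fit, which for members in REH and RCH-ACV is a description of values used in the choice. Open points did not, and receptors marked as not tested held too few counts. The fall of *EPHB3* stands in the REH panel at −1.07, and that of *EPHA7* at −0.40 in REH and −2.23 in RCH-ACV.

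The effects in the 3 lines are given side by side, and the differences between lines were not tested, because 2 of the 3 contrasts were used in the choice. In the order REH, 697 and RCH-ACV, the log2 fold change of *EPHB3* was −1.07, −0.16 and 0.01, that of *EPHB4* was −0.19, −0.25 and −0.09, and that of *EPHB6* was 0.18, −0.44 and −0.14. For *EPHA7* it was −0.40 in REH and −2.23 in RCH-ACV.

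*EPHA3*, the receptor with the highest level per length in 697 and RCH-ACV, had 203.8, 187.0 and 199.2 CPM with control siRNA and 166.7, 157.9 and 185.2 CPM with *SOX11* siRNA in 697. The groups were apart by a log2 fold change of −0.22 ± 0.06 (SE), which did not pass (edgeR's quasi-likelihood test, adjusted p = 0.225). In RCH-ACV it held 1015, 1030 and 1019 CPM against 854.2, 849.4 and 995.2 CPM and fell by 0.19 ± 0.05 on the log2 scale (adjusted p = 0.0268). That call was lost with 1 fit over the 18 samples and without any single RCH-ACV sample other than *SOX11* siRNA replicate 3. The other 5 receptors outside the choice stayed under 1 CPM in every group, and *EPHA5* had no count in any sample.

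The ligands were present in every line. *EFNB2*, the ephrin-B2 ligand of *EPHB4*, was the most abundant of the 8, at 76.4 ± 3.34 CPM in REH, 119 ± 5.20 CPM in 697 and 188 ± 3.22 CPM in RCH-ACV under control siRNA, and all pairs of lines differed (edgeR's quasi-likelihood test, adjusted p between 4.51e-14 and 2.17e-09). *EFNB1*, which codes for ephrin-B1, ran in another order, at 37.5 ± 3.61 CPM in REH, 20.3 ± 1.07 CPM in RCH-ACV and 3.34 ± 1.40 CPM in 697. REH exceeded RCH-ACV by 0.88 ± 0.12 (SE) and RCH-ACV exceeded 697 by 2.63 ± 0.19 on the log2 scale (adjusted p = 2.01e-06 and 8.69e-10). *EFNB3* was at 3.65 ± 0.511 CPM in 697 and under 1 CPM in the other lines.

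Among the ephrin-A ligands, *EFNA4* was at like levels in the lines, 14.9 ± 1.72 CPM in REH, 15.4 ± 1.53 CPM in 697 and 17.3 ± 1.34 CPM in RCH-ACV, and no pair passed the test. *EFNA3* was higher in 697, at 15.2 ± 0.988 CPM, than in REH (5.01 ± 0.626 CPM) or RCH-ACV (4.23 ± 0.481 CPM). The log2 difference was 1.59 ± 0.14 from REH and 1.84 ± 0.15 from RCH-ACV (SE; edgeR's quasi-likelihood test, adjusted p = 4.39e-09 and 3.17e-09). *EFNA1* and *EFNA2* lay between 1.47 and 3.99 CPM in the 3 lines, and *EFNA5* was under 1 CPM in each. *EFNA3* and *EFNA4* each share exon bases with the gene model *EFNA4-EFNA3* on the same strand, so reads in those bases cannot be assigned to 1 gene. *EFNB2* shares exon bases with a minor gene model on the opposite strand.

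With *SOX11* siRNA, 2 of the 6 ligands tested fell in REH, both of the B class, where 2.01% of all genes tested were called lower. *EFNB1* held 33.3, 39.6 and 39.6 CPM with control siRNA and 26.0, 27.4 and 28.2 CPM with *SOX11* siRNA, a log2 fold change of −0.45 ± 0.08 (SE; edgeR's quasi-likelihood test, adjusted p = 7.64e-04). *EFNB2* held 74.6, 80.2 and 74.3 CPM against 62.5, 66.4 and 61.3 CPM (−0.27 ± 0.05, adjusted p = 4.01e-03). Neither gene's groups overlapped, nor did those of *EFNA2*, of the A class, which was lower but not called (3.67, 3.91 and 4.38 against 3.04, 3.54 and 2.37 CPM). Groups that did not overlap were found for 21.5% of all genes tested. The calls of *EFNB1* and *EFNB2* were kept without any single REH sample.

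In 697, 0 of 7 ligands passed edgeR's quasi-likelihood test, with 0 at an unadjusted p under 0.05, where 0.559% of all genes tested were called. In RCH-ACV 0 of 6 passed it, against 7.51% of all genes tested. Without *SOX11* siRNA replicate 3, 1 passed, where 2479 of 13088 genes tested were called. In the fit of all RCH-ACV samples, 3 had an unadjusted p under 0.05, *EFNB1*, *EFNA3* and *EFNA2* (1.48 ± 0.403 with *SOX11* siRNA against 2.23 ± 0.0437 CPM). DESeq2 called 0 in both lines. The groups of *EFNB1*, *EFNB2* and *EFNA2* did not overlap in RCH-ACV, all lower with *SOX11* siRNA, nor did those of *EFNA3*, which was higher. In this line 25.8% of all genes tested had groups that did not overlap. In RCH-ACV *EFNB1* held 16.2 ± 1.52 CPM with *SOX11* siRNA against 20.3 ± 1.07 CPM in the controls (log2 fold change −0.31 ± 0.10, SE; adjusted p = 0.0674), and *EFNA3* held 5.78 ± 0.312 against 4.23 ± 0.481 CPM (0.46 ± 0.17, adjusted p = 0.109).

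**Figure D4:**
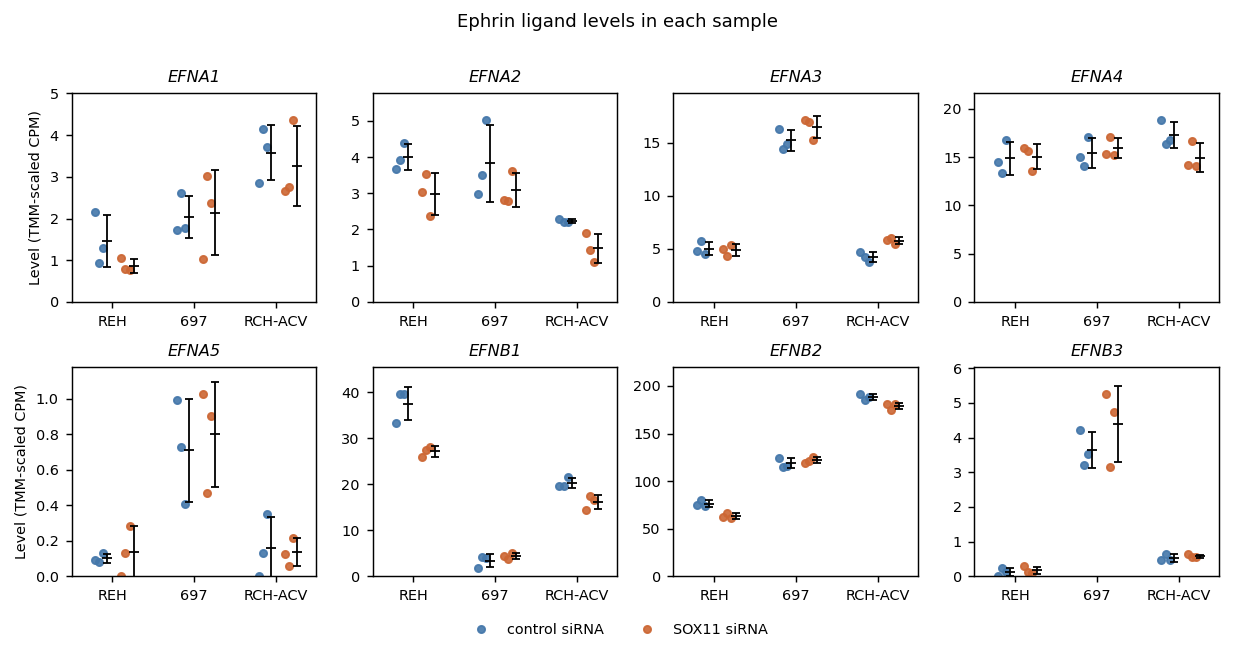
CPM of the 8 ephrin ligand genes in every sample, by line, on linear axes that start at 0 and differ between panels. Points are samples with control siRNA (blue) and *SOX11* siRNA (orange), and bars beside them are the mean and SD of 3 samples. *EFNB1*, *EFNB2* and *EFNA2* were lower with *SOX11* siRNA, without overlap between the groups, both in REH and in RCH-ACV. *EFNA3* was higher without overlap in RCH-ACV. Groups that did not overlap were found for 21.5% of all genes tested in REH and 25.8% in RCH-ACV. *EFNB2* was highest in RCH-ACV.

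A list of 59 genes that act with or below Eph receptors (adaptors, Src-family kinases, exchange factors for small GTPases, proteases) was examined in the same contrasts. The list was drawn up with earlier results of these data known. Its calls and p-values are therefore a description, and nothing is read from their number. *ADAM10*, a membrane protease that cuts ephrins and other surface proteins, fell in all 3 lines. Its mean with control and with *SOX11* siRNA was 210.1 and 138.7 CPM in REH. In 697 it was 358.4 and 228.7 CPM, and in RCH-ACV 291.1 and 221.1 CPM. The log2 fold changes were −0.59 ± 0.04, −0.66 ± 0.06 and −0.40 ± 0.05 (SE; edgeR's quasi-likelihood test, adjusted p = 4.19e-09, 4.07e-04 and 8.27e-05), and the calls held without any single sample.

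In REH, 6 of 54 listed genes tested were called, against the 4.65% of all genes tested. *PIK3CD*, a catalytic subunit of PI3-kinase, rose (0.21 ± 0.04 on the log2 scale, edgeR's quasi-likelihood test, adjusted p = 1.93e-03), as did *ITSN2*, an endocytic scaffold and exchange factor (0.22 ± 0.06, adjusted p = 0.0241). Besides *ADAM10*, the kinase genes *ABL1* (−0.17 ± 0.04, adjusted p = 0.0240) and *YES1* (−0.25 ± 0.07, adjusted p = 0.0484) and the adaptor gene *GRB10* (−0.20 ± 0.06, adjusted p = 0.0408) fell. The list's median log2 fold change was −0.0095, near that of all genes tested. *PIK3CD* and *ADAM10* kept their calls under every alternative tried. The other 4 lost theirs with DESeq2 and with 1 fit over the 18 samples, and *ABL1*, *YES1* and *GRB10* also with the replicate block. *YES1* lost it without any single REH sample. Over the fits without single samples, adjusted p went as high as 0.179 for *YES1*, 0.119 for *ABL1*, 0.188 for *GRB10* and 0.122 for *ITSN2*.

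In 697, *ADAM10* was the only one called of 54 tested, where 0.559% of all genes tested were called. In RCH-ACV, 10 of 56 were called, 3 higher and 7 lower, where 7.51% of all genes tested were called and 3.92% were called lower. Higher were *SH2D3A* (1.01 ± 0.24 on the log2 scale, edgeR's quasi-likelihood test, adjusted p = 0.0167), *MAPK3* (0.27 ± 0.07, adjusted p = 0.0209) and *RIN1* (0.84 ± 0.24, adjusted p = 0.0453), which code for an adaptor, the kinase ERK1 and a Ras effector. All 3 lost the call with DESeq2 and without *SOX11* siRNA replicate 2 or any single control sample, *RIN1* also without *SOX11* siRNA replicate 1 and *MAPK3* also with the replicate block. Besides *ADAM10*, the lower genes included *FYN*, a Src-family kinase (−0.35 ± 0.05, adjusted p = 3.83e-04), *BCAR3*, an adaptor (−0.39 ± 0.07, adjusted p = 1.88e-03), and *AFDN*, which codes for the junction protein afadin (−0.32 ± 0.06, adjusted p = 5.57e-03). These 4 kept their calls under every alternative tried. The list's median was −0.0324. Without *SOX11* siRNA replicate 3, 19 of the listed genes were called, where 2479 of 13088 genes tested were. Without each of the other RCH-ACV samples between 4 and 7 were called, where 386 to 543 of all genes were.

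Genes whose pattern was most like that of each expressed member were found by the root mean square (RMS) difference of mean-centred log2 CPM over the 6 group means, among 13343 genes. For *EPHB3* these were *BATF* (0.10), *MYRF* (0.20) and *AIFM2* (0.27). For *EPHA7* the nearest genes were farther off, *ELAVL4* (0.55), *CD109* (0.56) and *POU4F1* (0.60). For *EPHA4* they were *RIPK3* (0.27), *SLC4A8* (0.33) and *IL13RA1* (0.34), and for *EPHB2* they were *REEP2* (0.20), *NAP1L5* (0.21) and *RAG1* (0.24). The nearest for *EPHB4* and *EPHB6* were *ATP9B* (0.04), *C2CD5* (0.05) and *CDC14A* (0.06) for *EPHB4* and *DCBLD1* (0.09), *ZNF777* (0.11) and *PIK3AP1* (0.12) for *EPHB6*. The 6 group means share their lines in pairs, so these values describe mostly the levels of the lines.

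Some markers of other cell types moved with the siRNA. In RCH-ACV, 3 of 6 neural markers were at 1 CPM or more, and their summed level ran from 98.8 to 115.2 CPM with control siRNA and from 73.6 to 77.4 CPM with *SOX11* siRNA, while 2 of the 6 had no count. The 3 expressed were *TUBB3*, *MAP2* and *NES*, and *EPHA7* and *EPHA4* were lower in the same samples. In REH the 6 myeloid markers summed to between 15.1 and 17.1 CPM with control siRNA and to between 9.43 and 10.9 CPM with *SOX11* siRNA, mostly from *MPO*. The summed level of the 10 B-cell precursor markers ran from 5453 to 5651 CPM with control siRNA and from 5844 to 5896 CPM with *SOX11* siRNA in REH, from 5077 to 5473 and from 4494 to 4703 CPM in 697, and from 4662 to 4855 and from 3928 to 4699 CPM in RCH-ACV. The largest shift of a marker's mean was in *MME* in REH (1129 to 1432 CPM) and in *DNTT* in 697 (2726 to 2267) and RCH-ACV (2472 to 1911). Other markers moved against the sum, such as *EBF1* in REH (355.0 to 322.2 CPM) and *CD79A* in 697 (273.5 to 287.4) and RCH-ACV (128.3 to 176.0). Of 5 fibroblast markers, *COL1A1* alone was at 1 CPM or more, and their sum in REH ran from 3.01 to 3.60 CPM with control siRNA and from 1.57 to 2.38 CPM in the *SOX11* siRNA samples, in which *EPHB3* and *EPHA7* were lower, while 4 of the 5 had no count there. The other sums of neural, myeloid and fibroblast markers overlapped between the groups. In RCH-ACV the myeloid sum ran from 26.98 to 31.17 CPM with control siRNA and from 23.55 to 29.29 CPM with *SOX11* siRNA. The fibroblast sum there ran from 9.727 to 14.04 CPM and from 12.87 to 14.8 CPM. Of all genes tested singly, 21.5% in REH and 25.8% in RCH-ACV had groups that did not overlap. The part of the marker shifts in the receptors' values was not tested.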

How the data were processed

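Total RNA of 18 samples was made into stranded mRNA libraries. Per the labels and the study's methods, the authors checked reads with FastQC 0.10.1, trimmed them, aligned them to hg19 with STAR 2.5.3a, discarded reads at more than 2 locations and counted them with HOMER. The authors deposited raw read counts per RefSeq transcript, not normalized, in 1 table per line. Strand use in counting was not given in the sources used here.

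Symbols matched 98.0% of 50678 transcripts and 99.0% of counts. Each gene was represented by its most counted transcript (summed over the 18 samples), which left 26941 genes. Replicates of a group differed beyond sampling noise (chi-square over its degrees of freedom 1.30 to 5.18), so no library was repeated within a group. Each line was fitted alone (3 samples against 3) with edgeR 4.0.16 in R 4.3.3 (TMM, filterByExpr, quasi-likelihood F-test, two-sided, Benjamini-Hochberg over all genes tested, adjusted p under 0.05). The 9 control samples were fitted together for the pairs of lines. CPM used TMM-scaled library sizes, and levels per kilobase used the length of the GENCODE representative transcript lifted to GRCh37, which may differ from the RefSeq one. SE was taken as the log2 fold change over the root of F. Exact permutation tests used log2 CPM with a prior count of 0.5. In simulated data with 200 genes changed 2-fold, the fits for REH, 697 and RCH-ACV recovered 91.5%, 88.5% and 93%, and 7.11%, 6.84% and 7.46% of the genes called were false. These false shares lay above the 0.05 aimed at. Smaller changes, such as those of the members in 697, were not simulated.

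Alternatives tried were library size alone, RLE size factors, DESeq2 1.42.0, 2 other filters on low counts, an adjusted p under 0.01, the transcript chosen within the fit, the replicate number as a block, 1 fit over the 18 samples, and leaving out each sample in turn. For ligands and signalling genes they were added after seeing the data. Members, gene lists and markers were chosen with earlier results of these data known. Named were all receptors and ligands, listed signalling genes called (at most 4 per line and direction), *SOX11*, and the 3 genes most like each member with at least 1 CPM in a line.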

Additional observations from a re-analysis of the deposited data

How the results depend on the processing

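The count of receptors called in RCH-ACV went from 2 to 1 with an adjusted p under 0.01, with DESeq2, with the replicate block and with 1 fit over the 18 samples, each time because *EPHA4* was lost. Leaving out single samples gave 1 to 2 there, 2 to 3 in REH, 0 in 697, 3 to 4 for REH against 697, 5 for REH against RCH-ACV and 6 for 697 against RCH-ACV. For these pairs of lines, in the same order, 10007 to 10463, 9539 to 10581 and 8163 to 8812 of all genes were called without single samples. The counts in REH and RCH-ACV describe contrasts used in the choice, and nothing is read from any of these counts. Signs turned only for values near 0. *EPHB2* in REH lay between −0.3275 and 0.0362 without single samples, the latter without control replicate 2. *EPHB3* in RCH-ACV went to −0.0042 with the block, to −0.02 without *SOX11* siRNA replicate 2, −0.06 without *SOX11* siRNA replicate 3 and −0.12 without control replicate 1, and as far as 0.15 the other way. *EPHB4* between REH and 697 lay between −0.0518, without 697 control replicate 1, and 0.0506, and it passed the test at 0.14 with library size alone, which moved the median of all genes from 0.02 to 0.15. The cause of these changes was not tested. Without single samples, the log2 fold change lay between −1.22 and −0.97 for *EPHB3* in REH, −0.45 and −0.37 for *EPHA7* in REH, and −2.43 and −1.98 for *EPHA7* in RCH-ACV, given as a description of values used in the choice.

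Over all genes, 594 were called in REH, 275 with an adjusted p under 0.01, 315 with DESeq2, 228 with 1 fit over the 18 samples and 296 to 522 without single samples. In 697 these were 68, 29 (adjusted p under 0.01), 119 (no filter), 29 (block), 189 (1 fit) and 25 to 70. In RCH-ACV they were 973, 401 (adjusted p under 0.01), 577 (DESeq2) and 386 to 2479, the highest without *SOX11* siRNA replicate 3. Of the listed signalling genes, 6 were called in REH and 2 to 4 without single samples, and 10 in RCH-ACV and 4 to 19.

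Same-numbered samples did not deviate together (correlations between −0.11 and 0.0869), so replicate numbers were not taken to pair samples. Beside *EPHA4* in RCH-ACV, the block took the *EPHA4* call between REH and 697 and changed no other receptor's call. Depth limits *EPHA7* in RCH-ACV (3 to 29 counts per sample) and *EPHB1* and *EPHA8* everywhere.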
